A study of Mus musculus with 9 samples.

Results

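The 50 genes described here are the parts of the mouse lysosome that digest, bound and acidify it. They were taken from a table of podocyte gene expression as every symbol that begins with Atp6v0 or Atp6v1, the subunits of the vacuolar proton pump, together with 27 named lysosomal genes. The symbol pattern gave 23 genes, so that 50 of the 23309 symbols in the table were members. They fell into 18 hydrolases, 6 membrane proteins, 3 soluble lumen proteins that are not enzymes, 9 genes of the V0 sector and 13 of the V1 sector of the pump, and 1 pseudogene, Atp6v0c-ps2. On day 14 of injury, 3 V1 subunit genes and 1 V0 subunit gene were higher than in control podocytes. The V0 gene Atp6v0a1 and the glycogen-degrading hydrolase gene Gaa were lower. Of all genes tested, 6.32% were higher and 10.7% lower. Of these 6 calls, 0 stood without PBS replicate 2 or with a term for Y-linked transcripts. The lists of other lysosomal genes read below also had 0 calls on day 14 against PBS in those fits. No member passed the test on day 9.

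The series followed RNA in podocytes, the cells that form the filtration slits of the glomerulus, during injury. All mice were labelled wildtype and were 7 to 8 weeks old, and all groups carried the mTmG reporter with a podocyte Cre. Recombination by that Cre switches a membrane reporter to green fluorescent protein, and RNA was taken from the GFP-positive cells. The 3 groups had 3 libraries each: mice given PBS, mice 9 days after an injection abbreviated ADR, and mice 14 days after it. Whether each library came from its own mouse or from a pool is not stated, so the p-values reflect library-to-library spread, which may be technical.

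Lysosomes break down proteins, lipids, glycogen and glycans with hydrolases that work in an acid lumen. The vacuolar ATPase acidifies that lumen: its V1 sector, in the cytosol, splits ATP, and its V0 sector, in the membrane, carries the protons. Podocytes divide rarely and depend on autophagy and lysosomal turnover to clear damaged material. Many lysosomal genes carry a motif in their promoters, the CLEAR element, that the transcription factor TFEB and its relatives recognise.

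Values are FPKM, in which a gene's fragments are divided by its length and by the size of the library, so levels can be compared between genes on this per-length scale. Column totals ran from 572787 to 723288 FPKM, and 8629 to 10474 genes reached 1 FPKM per library. Read counts were not used here, and the depth is known only as a relative estimate from the steps of the lowest values. That estimate was 1 to 1.09 for the PBS libraries, 0.786 to 0.889 for day 9 and 0.239 to 0.569 for day 14, so day 14 values were the least precise. Libraries labelled day 9 replicate 3 and day 14 replicate 1 stood apart. In each, all 15 markers of endothelium were over 4 times their PBS maximum and at 1 FPKM or more. So were 11 and 14 of 21 leukocyte markers and 5 and 15 of 16 proximal tubule markers, in that order of libraries. The same held for 9 and 12 of 13 markers of principal cells, the loop and the distal tubule. Those 13 markers summed to 652 FPKM in day 9 replicate 3 and 13120 FPKM in day 14 replicate 1. Elsewhere they summed to 3.02 to 62.3 FPKM. The summed FPKM of 16 podocyte markers was 3147 in day 14 replicate 1 and 9779 to 16320 in the other 8 libraries. Each count of calls below was also made without these 2 libraries. Every PBS library held Y-linked transcripts, as did day 9 replicate 1 and day 14 replicate 2, and they were near 0 in the rest. In bulk libraries such as these, fewer cells of a type and less RNA per cell cannot be told apart.

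The promoters of the members are shown first, because a shared motif is the best-known feature that ties these genes together. RefSeq windows on GRCm38.p6, each with 250 bases before and 50 after an annotated start, were matched for 39 of the 50 members, in 44 windows. Those of Asah1, Atp6v0a2, Atp6v0c-ps2, Atp6v0d2, Atp6v1b2, Atp6v1c1, Atp6v1g1, Atp6v1h, Ctsb, Ctsh and Npc1 were not matched. The letters searched were CACGTG, the E-box, and TCACGTGA, the core of the CLEAR element, which contains the E-box; both are their own reverse complement, so one search covers both strands. The core was present in 7 of the 44 windows (15.9%), against 0.974% of the 32851 windows of all genes and 1.97% of the windows of the genes tested. The E-box was present in 27.3% of the members' windows, against 7.15% of all windows and 10.3% of those of the genes tested. The 7 members with the core were Atp6v0d1, Atp6v0e, Atp6v1a, Ctsa, Ctsd, Gla and Mcoln1. Printed below are the windows of the 5 matched genes that passed the test in any comparison (Atp6v0e, Atp6v0a1, Atp6v1f, Gaa and Cd63) and, for contrast, 2 genes with the core that did not (Atp6v1a and Mcoln1). Capitals mark the CLEAR core or an E-box outside it; positions count the annotated start as base 1.
Atp6v0e: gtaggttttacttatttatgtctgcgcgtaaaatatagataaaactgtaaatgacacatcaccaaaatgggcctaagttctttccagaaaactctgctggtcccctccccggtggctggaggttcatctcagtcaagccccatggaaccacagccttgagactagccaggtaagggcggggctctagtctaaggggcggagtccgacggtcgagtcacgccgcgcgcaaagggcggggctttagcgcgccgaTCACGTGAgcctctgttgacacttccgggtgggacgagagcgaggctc
Atp6v1a: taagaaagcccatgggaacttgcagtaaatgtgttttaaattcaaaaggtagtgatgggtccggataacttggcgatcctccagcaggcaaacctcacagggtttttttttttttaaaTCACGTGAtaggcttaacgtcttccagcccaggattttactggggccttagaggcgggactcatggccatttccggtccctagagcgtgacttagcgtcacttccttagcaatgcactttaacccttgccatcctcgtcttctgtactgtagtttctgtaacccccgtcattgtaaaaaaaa
Mcoln1: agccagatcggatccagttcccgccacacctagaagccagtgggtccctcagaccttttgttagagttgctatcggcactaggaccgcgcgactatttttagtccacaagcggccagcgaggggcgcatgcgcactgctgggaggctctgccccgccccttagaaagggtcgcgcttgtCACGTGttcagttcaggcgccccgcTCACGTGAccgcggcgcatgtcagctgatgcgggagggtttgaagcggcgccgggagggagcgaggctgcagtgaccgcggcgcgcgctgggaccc
Gaa: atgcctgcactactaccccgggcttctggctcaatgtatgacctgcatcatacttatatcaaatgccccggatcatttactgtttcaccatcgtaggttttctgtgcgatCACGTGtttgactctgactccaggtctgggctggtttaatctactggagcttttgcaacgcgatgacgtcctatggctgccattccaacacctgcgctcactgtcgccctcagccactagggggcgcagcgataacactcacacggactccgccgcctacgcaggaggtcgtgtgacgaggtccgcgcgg
Atp6v0a1: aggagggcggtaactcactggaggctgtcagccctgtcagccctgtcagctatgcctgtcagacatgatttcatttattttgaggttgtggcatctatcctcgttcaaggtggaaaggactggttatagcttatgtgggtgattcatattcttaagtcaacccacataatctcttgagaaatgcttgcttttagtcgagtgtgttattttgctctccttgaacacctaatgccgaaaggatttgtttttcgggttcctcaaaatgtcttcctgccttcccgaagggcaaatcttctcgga
Atp6v1f: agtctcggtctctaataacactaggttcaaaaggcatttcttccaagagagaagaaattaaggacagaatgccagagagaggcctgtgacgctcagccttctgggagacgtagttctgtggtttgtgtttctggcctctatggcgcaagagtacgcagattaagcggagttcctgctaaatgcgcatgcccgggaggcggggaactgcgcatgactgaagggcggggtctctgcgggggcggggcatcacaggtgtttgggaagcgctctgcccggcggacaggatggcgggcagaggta
Cd63: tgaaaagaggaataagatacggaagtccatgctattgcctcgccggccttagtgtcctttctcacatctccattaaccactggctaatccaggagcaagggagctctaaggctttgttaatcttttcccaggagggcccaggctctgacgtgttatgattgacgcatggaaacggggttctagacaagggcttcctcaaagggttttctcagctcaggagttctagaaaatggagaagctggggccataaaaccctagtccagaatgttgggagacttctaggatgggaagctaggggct
Each window is printed 5′ to 3′ on the strand of its gene. On GRCm38.p6 the genes with the core or an E-box gave the Atp6v0e window at chr17:26676146-26676445 (plus strand), the Atp6v1a window at chr16:44139210-44139509 (minus strand), the Mcoln1 window at chr8:3500269-3500568 (plus strand) and the Gaa window at chr11:119267713-119268012 (plus strand). Those without gave the Atp6v0a1 window at chr11:101010148-101010447 (plus strand), the Atp6v1f window at chr6:29467533-29467832 (plus strand) and the Cd63 window at chr10:128909095-128909394 (plus strand).
In Atp6v0e the E-box within the core began at base 4 after the start. In Atp6v1a it began 131 bases before the start. Mcoln1 held an E-box 71 bases before the start and a core whose E-box began 45 bases before it. Gaa held an E-box without the full core, 140 bases before the start. Neither set of letters occurred in the printed windows of Atp6v0a1, Atp6v1f or Cd63. A match describes the letters of a window and does not show that a factor binds there.

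Taken by their level, these genes ranged from among the most abundant RNAs of the cells to undetected. The mean over the 9 libraries exceeded 100 FPKM for 17 members, and 1015 symbols of the table reached that level. The V0 gene Atp6v0e had the highest mean, 1325 FPKM, followed by Ctsd, which encodes the aspartic protease cathepsin D, at 1110 FPKM and the V1 gene Atp6v1g1 at 1074 FPKM. These 3 ranked 69, 88 and 91 among all symbols, and their ranges over libraries overlapped. In all, 38 members reached 1 FPKM in all 9 libraries. The test covered the 42 members that reached 1 FPKM in at least 3 libraries, which left out Npc2, Atp6v0a4, Atp6v0d2, Atp6v1b1, Atp6v1c2, Atp6v1e2, Atp6v1g2 and Atp6v1g3.

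**Figure D1:**
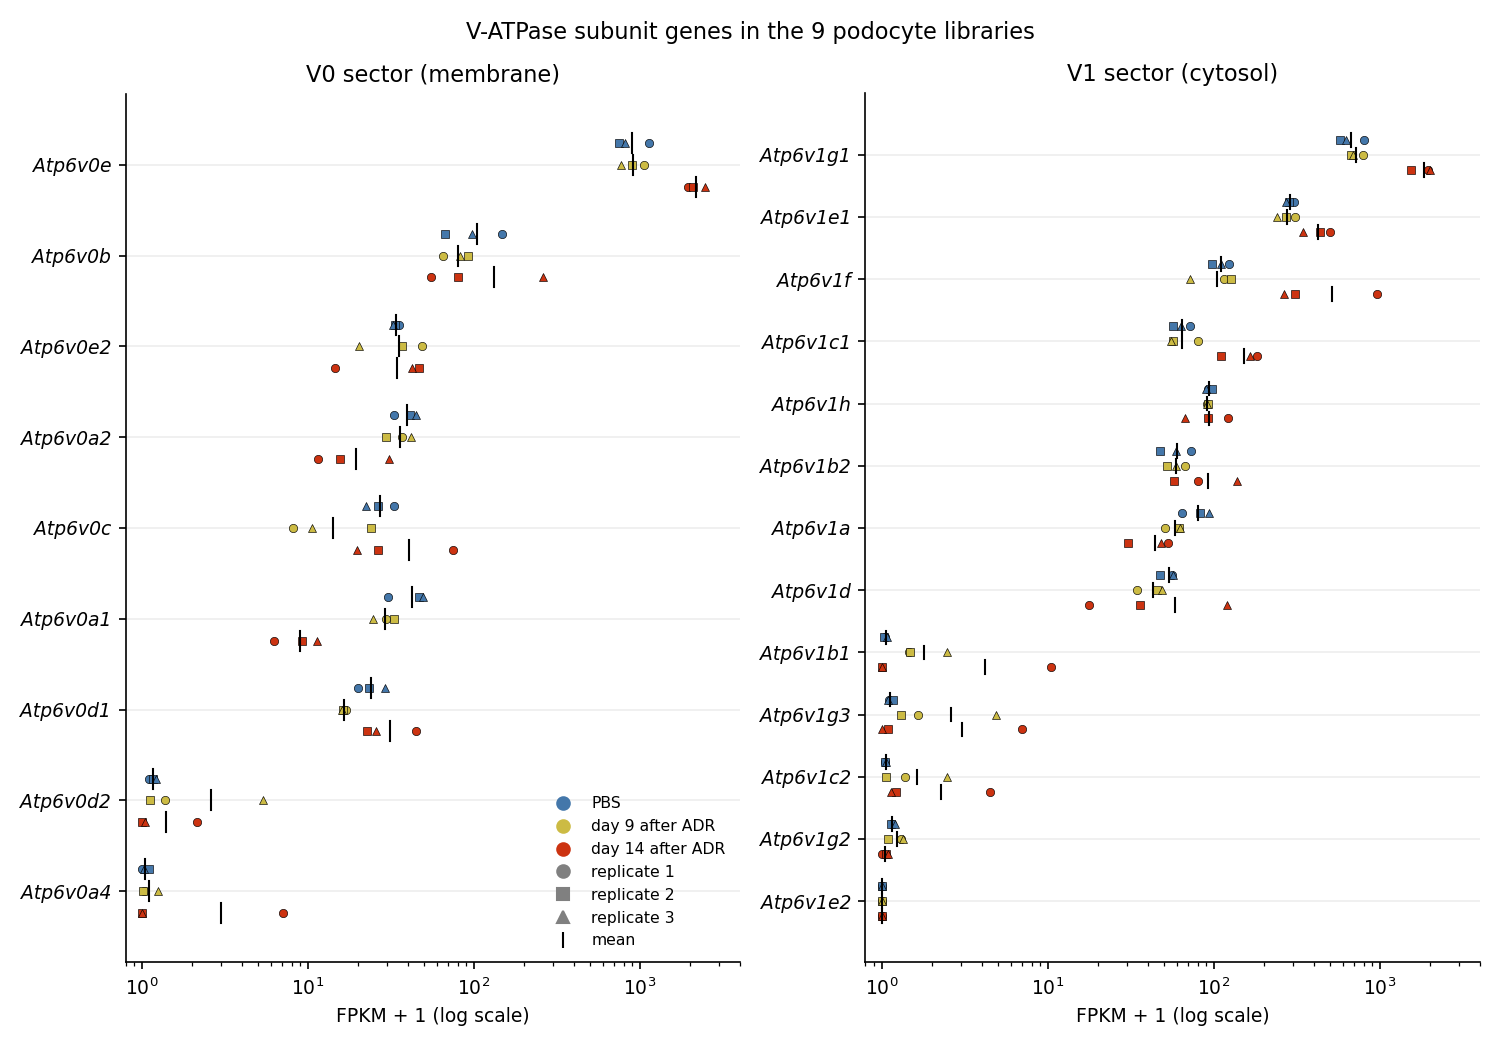
FPKM + 1 (log scale) of each V0 and V1 subunit gene in the 9 libraries; colour gives the group, marker shape the replicate number, and a vertical tick the group mean. Atp6v0e and Atp6v1g1 have the highest group means, and their day 14 points lie above all PBS and day 9 points; the isoforms of other tissues lie at the left edge apart from points of day 9 replicate 3 and day 14 replicate 1.

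Each gene was tested with limma on log2(FPKM + 1) in a fit of all 9 libraries, with Benjamini-Hochberg adjustment over the 9788 genes tested, and passed where the adjusted p was under 0.05. Log2 changes are given on that scale, on which low genes appear to change less, and as a difference from the median gene tested. The median gene changed by 0.04 between PBS and day 9, by -0.15 between PBS and day 14, and by -0.22 between day 9 and day 14. The comparisons of day 9 and of day 14 with PBS share the PBS libraries, and both day 14 comparisons share the day 14 libraries, so their values are set side by side and are not independent.

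On day 9, no change in the lysosomal genes passed the test. Of the 42 members 0 passed by limma, beside 0% of all 9788 genes, and 0 members had an unadjusted p under 0.05, beside 304 of all genes. The smallest adjusted p of a member was 0.9999. The median log2 change was 0.04 for the hydrolases, -0.10 for the membrane proteins, -0.35 for the V0 genes and -0.08 for the V1 genes, beside 0 for all genes tested. For 4 tested members, Lamp2, Grn, Atp6v0d1 and Atp6v1a, the day 9 values were all under the lowest PBS value, beside 6.63% of all genes tested. For 0 tested members they were all over the highest, beside 6.77% of all genes tested. Among the untested members, Atp6v1b1 and Atp6v1g3 had all day 9 values over the highest PBS value, reaching 1.48 and 3.89 FPKM in day 9 replicate 3.

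Gusb, the hydrolase beta-glucuronidase, had the lowest unadjusted p of the members on day 9. It was at 17.2, 13.2 and 15.5 FPKM in the PBS libraries and at 31.2, 17.0 and 40.7 FPKM on day 9. Its groups overlapped, since day 9 replicate 2 lay under PBS replicate 1, and its log2 change was 0.80 (adjusted p = 0.9999 by limma). The membrane gene Lamp1 was at 382, 181 and 19.3 FPKM with PBS, then at 325, 331 and 301 FPKM on day 9; the spread lay in the PBS libraries, with replicate 3 at the lowest value of the 9.

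On day 14, 5 of the 15 tested pump genes differed from PBS, 4 higher and 1 lower, and the other 10 did not pass. Among the 42 members, 6 passed the limma test, beside 17.1% of all genes tested: 4 were higher (6.32% of all genes were) and 2 lower (10.7% of all genes were). The higher ones were Atp6v0e, Atp6v1c1, Atp6v1f and Atp6v1g1, and the lower ones Atp6v0a1 and Gaa. The share of members that passed was thus close to that of all genes, and the count is no result about the members as a group. In all, 11 members had an unadjusted p under 0.05, beside 3348 of all 9788 genes. With each column brought to a common total, 10 members passed, 4 higher and 6 lower, while the calls listed here stood. The day 14 values were all over the highest PBS value for 6 tested members and all under the lowest for 6, beside 15.6% and 23.8% of all genes tested. Among the untested members, those of Npc2 and Atp6v1c2 were also all over it and those of Atp6v1g2 all under the lowest.

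The V1 sector, which splits ATP in the cytosol, had 3 of its 8 tested genes higher and 0 lower on day 14, beside 6.32% and 10.7% of all genes. Of these, Atp6v1f and Atp6v1g1 did not pass once a trend on length and GC was removed. The median log2 change of the 8 genes was 0.70, within a range from -0.75 to 2.10. Atp6v1f encodes the small subunit F of the rotor stalk. It was at 124, 96.5 and 110 FPKM with PBS, at 115, 126 and 70.8 FPKM on day 9, and at 965, 306 and 264 FPKM on day 14. All day 14 values lay above all others, and replicate 1, a library with markers of other kidney cells, was far above the other two. Its log2 change on day 14 against PBS was 2.10 ± 0.47 (SE; adjusted p = 0.0266 by limma), and 1.54 without the 2 libraries that stood apart (adjusted p = 0.0129).

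Atp6v1g1 encodes subunit G, part of the peripheral stalk that holds the sectors together, and was the most abundant V1 gene. It was at 807, 572 and 627 FPKM with PBS, at 789, 668 and 689 FPKM on day 9, and at 1955, 1544 and 2018 FPKM on day 14. The day 14 values lay above all others and close to each other. The log2 change against PBS was 1.61 ± 0.24 (adjusted p = 0.0108 by limma), and the ratio of mean FPKM was 2.75.

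Atp6v1c1 encodes subunit C, which links the peripheral stalks and takes part in the reversible docking of V1 on V0. It was at 71.0, 55.6 and 62.5 FPKM with PBS, at 79.2, 56.1 and 54.4 FPKM on day 9, and at 180.5, 109 and 164 FPKM on day 14. The lowest day 14 value exceeded the highest of the other groups. Its log2 change against PBS was 1.37 ± 0.26 (adjusted p = 0.0197 by limma).

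The other 5 tested V1 genes, those of the catalytic head among them, did not pass. Atp6v1a, the catalytic subunit A, was at 63.8, 81.6 and 92.6 FPKM with PBS, at 50.1, 61.0 and 61.9 FPKM on day 9, and at 52.4, 29.3 and 47.4 FPKM on day 14. All 6 injured libraries were under the lowest PBS value, and the log2 change on day 14 was -0.75 ± 0.27, which did not pass (adjusted p = 0.0519 by limma). Atp6v1b2, the B subunit of most tissues, had means of 58.8 ± 12.8, 58.5 ± 7.37 and 90.9 ± 40.9 FPKM (SD, n = 3 each) with PBS, on day 9 and on day 14. Atp6v1e1, a stalk subunit, was at 302, 283 and 270 FPKM with PBS, at 309, 272 and 240 FPKM on day 9, and at 498, 435 and 342 FPKM on day 14, which lay above both other groups. Its log2 change of 0.71 ± 0.22 did not pass (adjusted p = 0.109 by limma). Atp6v1d and Atp6v1h, rotor and regulatory subunits, had groups that overlapped, with Atp6v1h between 66.3 and 121 FPKM and Atp6v1d between 16.8 and 120 FPKM.

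In the V0 sector, which carries the protons, 1 of the 7 tested genes was higher and 1 lower on day 14. Of all genes, 6.32% were higher and 10.7% lower. The median log2 change of the 7 genes was 0.24. That median was -0.23 without day 14 replicate 3 and -0.28 with the dependence on transcript length and GC content removed. Atp6v0e encodes a small membrane subunit. It was at 1141, 749 and 813 FPKM with PBS, at 1063, 898 and 770.5 FPKM on day 9, and at 1939, 2073 and 2481 FPKM on day 14. Day 14 lay above both other groups in every library, the log2 change against PBS was 1.43 ± 0.26 (adjusted p = 0.0182 by limma), and the ratio of means was 2.40.

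Atp6v0a1 moved the other way. It encodes isoform a1 of the large V0 subunit that lines the proton path and helps to set which membranes the pump is sent to. It was at 29.3, 45.7 and 48.6 FPKM with PBS, at 28.8, 31.9 and 23.7 FPKM on day 9, and at 5.27, 8.29 and 10.4 FPKM on day 14. The day 14 libraries lay below all others, with a log2 change against PBS of -2.09 ± 0.30 (adjusted p = 0.00994 by limma) and a ratio of means of 0.194. The second abundant isoform, Atp6v0a2, was at 32.2, 40.2 and 43.7 FPKM with PBS, at 35.7, 28.5 and 40.7 FPKM on day 9, and at 10.5, 14.7 and 29.95 FPKM on day 14. Its day 14 values lay under all PBS values and overlapped day 9, and its log2 change of -1.001 ± 0.36 did not pass (adjusted p = 0.0578 by limma).

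The a isoforms, with Tcirg1 for a3 from outside the symbol pattern, summed to 80.8 ± 16.4 FPKM with PBS, 64.2 ± 2.85 FPKM on day 9 and 29.3 ± 10.1 FPKM on day 14 (SD, n = 3 each). Atp6v0a1 made up 50.5% ± 3.06 of that sum with PBS and 27.8% ± 7.07 on day 14. Tcirg1 stayed between 0.213 and 1.93 FPKM. The proteolipid gene Atp6v0c and its pseudogene Atp6v0c-ps2 are near-identical copies whose reads could be split, so their separate values are uncertain. Together they summed to 47.7, 35.9 and 38.8 FPKM with PBS, 41.8, 41.4 and 20.6 FPKM on day 9 and 74.4, 63.6 and 44.3 FPKM on day 14, with overlap between PBS and day 14. Atp6v0b, the other proteolipid gene, was at 146, 66.3 and 96.2 FPKM with PBS, at 64.7, 91.3 and 81.4 FPKM on day 9, and at 54.4, 79.4 and 259 FPKM on day 14, so that day 14 held both its lowest and its highest value. Atp6v0e2, the second e isoform, was at 34.5, 32.4 and 31.5 FPKM with PBS, at 47.7, 35.9 and 19.4 FPKM on day 9, and at 13.7, 45.5 and 41.2 FPKM on day 14. The log2 changes on day 14 against PBS, 0.24 ± 0.54 for Atp6v0b and 0.00 ± 0.47 for Atp6v0e2, did not pass (adjusted p = 0.919 and 0.853 by limma). Atp6v0d1, the common d isoform, was at 19.1, 22.4 and 28.0 FPKM with PBS, 16.1, 15.3 and 15.1 FPKM on day 9, and 44.0, 21.8 and 24.6 FPKM on day 14.

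Summed over the 22 subunit genes, the pump's RNA was at 3021, 2261 and 2449 FPKM with PBS, at 2797, 2495 and 2285 FPKM on day 9, and at 6036, 4875 and 6022 FPKM on day 14. The day 14 sums lay above all others; Atp6v0e and Atp6v1g1 made up 58.4% to 74.7% of the sum in every library. Without those 2 genes the mean sums were 1007 ± 66.0, 900 ± 64.8 and 1641 ± 454 FPKM, and over the genes that passed in no comparison they were 793 ± 53.2, 704 ± 24.4 and 970 ± 127 FPKM (SD, n = 3 each; PBS, day 9 and day 14). No test was made on these sums, which weight the genes by their level. They were not scaled to a common column total. The totals over all genes were also larger on day 14, at 699412 to 723288 FPKM against 573214 to 630662 FPKM with PBS.

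**Figure D2:**
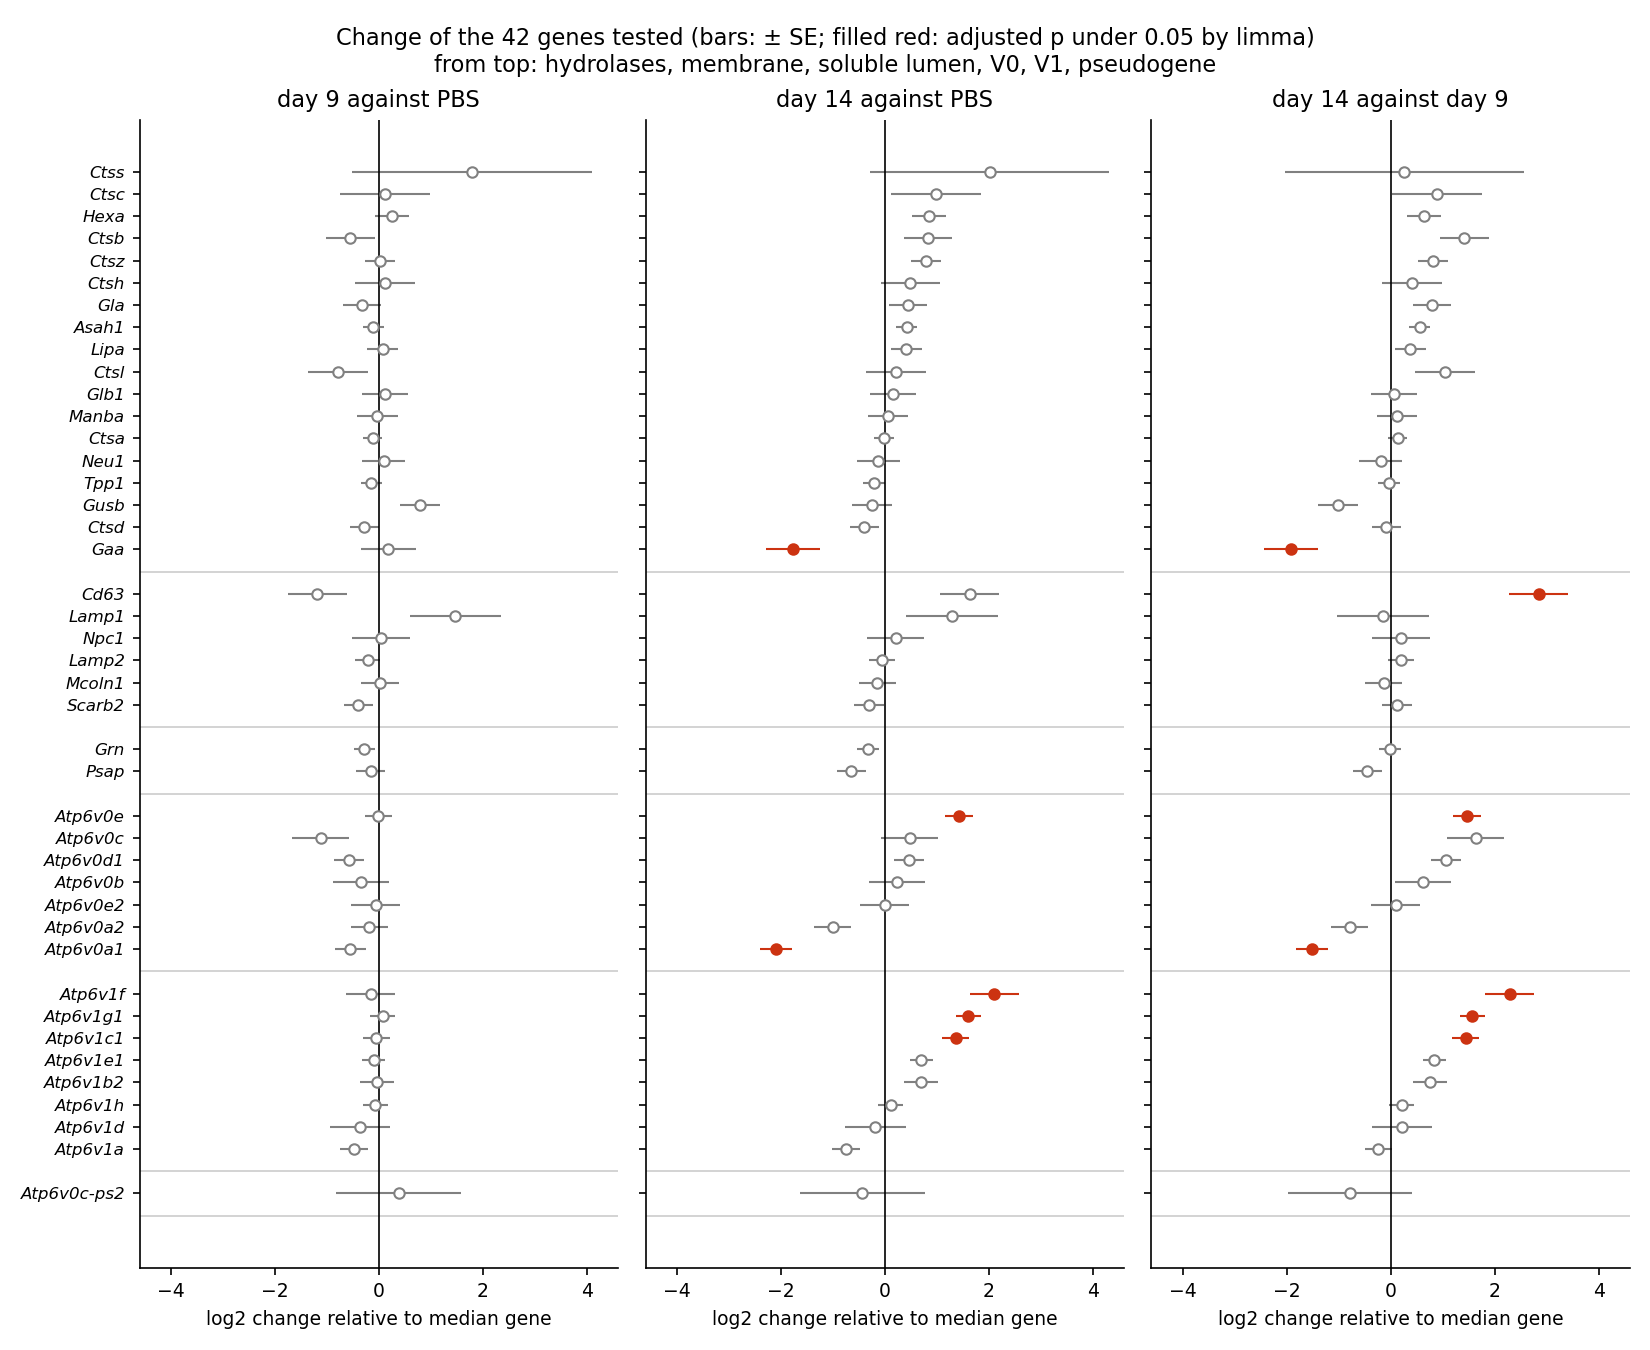
Log2 change of each of the 42 genes tested, relative to the median gene, in the 3 comparisons; bars are ± SE and filled red points passed the limma test. No point is filled for day 9; Atp6v0a1 and Gaa are filled on the negative side and Atp6v0e, Atp6v1c1, Atp6v1f and Atp6v1g1 on the positive side in both day 14 comparisons, with Cd63 added against day 9.

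The isoforms of other tissues were close to absent in the PBS libraries. Atp6v0a4, Atp6v0d2, Atp6v1b1, Atp6v1c2 and Atp6v1g3, the isoforms of the acid-secreting intercalated cells of the collecting duct and their like, summed to 0.339, 0.524 and 0.499 FPKM with PBS, 1.93, 0.981 and 11.5 FPKM on day 9, and 26.3, 0.312 and 0.188 FPKM on day 14. The high values lay in day 9 replicate 3 and day 14 replicate 1. In the same libraries 6 intercalated cell markers outside the pump summed to 17.9 and 56.7 FPKM, against 0.0174 to 2.02 FPKM elsewhere. Of the 6, 4 and 2 were at 1 FPKM or more. In day 14 replicate 1 nearly all of the sum was Car2, at 54.5 FPKM, with Slc4a1 at 2.08 FPKM. There Slc26a4, Foxi1 and Slc4a9 were at 0 and Aqp6 at 0.157 FPKM. In day 9 replicate 3, Slc26a4, Slc4a9, Slc4a1 and Foxi1 were at 8.91, 3.76, 2.82 and 1.13 FPKM. The part of intercalated cells in the values of the pump isoforms was not tested. Atp6v1g2, an isoform of the brain, did not exceed 0.340 FPKM, and Atp6v1e2, known from testis, is listed at 0 in every library.

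Among the hydrolases, 1 of 18 passed the test on day 14 against PBS and it was lower, where 10.7% of all genes were lower and 6.32% higher. The median log2 change of the hydrolases was 0.32, and -0.01 without day 14 replicate 1. Gaa encodes acid alpha-glucosidase, which degrades glycogen in the lysosome. It was at 29.6, 27.9 and 34.7 FPKM with PBS, at 31.9, 34.9 and 41.2 FPKM on day 9, and at 20.2, 6.22 and 2.86 FPKM on day 14. Day 14 lay below both other groups, with replicate 1 nearest to them. Its log2 change against PBS was -1.77 ± 0.53 (adjusted p = 0.0396 by limma) and -2.41 without the 2 libraries that stood apart (adjusted p = 0.0121). Of the 9 fits that left out 1 library each, Gaa passed only in the one without day 14 replicate 1, where the value was also -2.41.

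The cathepsins, the lysosomal proteases, made up most hydrolase RNA, with summed means of 2688 ± 125 FPKM with PBS, 2272 ± 210 FPKM on day 9 and 2950 ± 248 FPKM on day 14 (SD, n = 3 each). Ctsd was at 1075, 1275 and 1595 FPKM with PBS, at 1232, 1057 and 1014 FPKM on day 9, and at 772, 770 and 1198 FPKM on day 14. Its groups overlapped and its log2 change against PBS on day 14, -0.39 ± 0.28, did not pass (adjusted p = 0.1998 by limma). Its share of the hydrolase sum was 42.9% ± 8.77 with PBS, 41.1% ± 0.657 on day 9 and 27.3% ± 6.06 on day 14. Ctsz, a carboxypeptidase, was at 439, 317 and 323 FPKM with PBS, at 405, 327 and 377 FPKM on day 9, and at 800, 407.5 and 535 FPKM on day 14. Its log2 change against PBS, 0.80 ± 0.29, did not pass (adjusted p = 0.148 by limma), and PBS replicate 1 overlapped day 14.

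Ctsb, cathepsin B, was at 367, 418 and 187 FPKM with PBS, at 278, 183 and 194 FPKM on day 9, and at 308, 400 and 975 FPKM on day 14. The day 14 values lay above all day 9 values but overlapped PBS, and the log2 change of 1.41 ± 0.47 against day 9 did not pass (adjusted p = 0.110 by limma). Ctsl, cathepsin L, a protease described in podocyte injury, ranged from 112 to 743 FPKM, with the highest value in day 14 replicate 2 and the lowest in day 9 replicate 3. Ctsh, an aminopeptidase, ranged from 75.5 to 296 FPKM. Ctsa, which protects other lysosomal enzymes, was the steadiest of the abundant hydrolases, between 182 and 241 FPKM.

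Ctss and Ctsc, cathepsins known best from leukocytes, were high in the libraries that stood apart. Ctss was at 6.77, 0.151 and 0.0279 FPKM with PBS, at 0.5001, 2.38 and 79.3 FPKM on day 9, and at 341, 0 and 0.319 FPKM on day 14. Its log2 change against PBS on day 14 was 2.02 (adjusted p = 0.594 by limma), and it turned to -0.70 without day 14 replicate 1 (adjusted p = 0.739). Ctsc was at 12.8 FPKM in day 14 replicate 1, 5.10 FPKM in day 9 replicate 3 and at most 2.10 FPKM elsewhere. The summed FPKM of 21 leukocyte markers was 1598 in day 9 replicate 3 and 2339 in day 14 replicate 1, with 13 and 16 of them at 1 FPKM or more, against 7.95 to 89.7 in the other 7 libraries; their part in these values was not tested.

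The other hydrolases, most of them enzymes of glycans and lipids, were less abundant, and apart from Gaa their day 14 values overlapped PBS. Their summed level, with Gaa, was 382 ± 32.2 FPKM with PBS, 404 ± 42.9 FPKM on day 9 and 384 ± 98.2 FPKM on day 14 (SD, n = 3 each). Tpp1, a peptidase lost in a childhood neurodegeneration, ranged from 83.2 to 146 FPKM, and Asah1, acid ceramidase, from 77.8 to 128 FPKM. Glb1, beta-galactosidase, ranged from 31.6 to 111 FPKM and Hexa, a subunit of beta-hexosaminidase, from 25.9 to 76.3 FPKM, both highest in day 14 replicate 1. Gla, the alpha-galactosidase deficient in Fabry disease, which damages podocytes, was at 5.04, 4.54 and 5.43 FPKM with PBS, 3.18, 3.86 and 4.89 FPKM on day 9, and 11.5, 3.48 and 6.21 FPKM on day 14. Day 14 thus held both a higher and a lower value than any PBS library. Neu1, Lipa and Manba, which remove sialic acid, split cholesterol esters and remove mannose, reached at most 47.4, 20.0 and 5.53 FPKM.

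**Figure D3:**
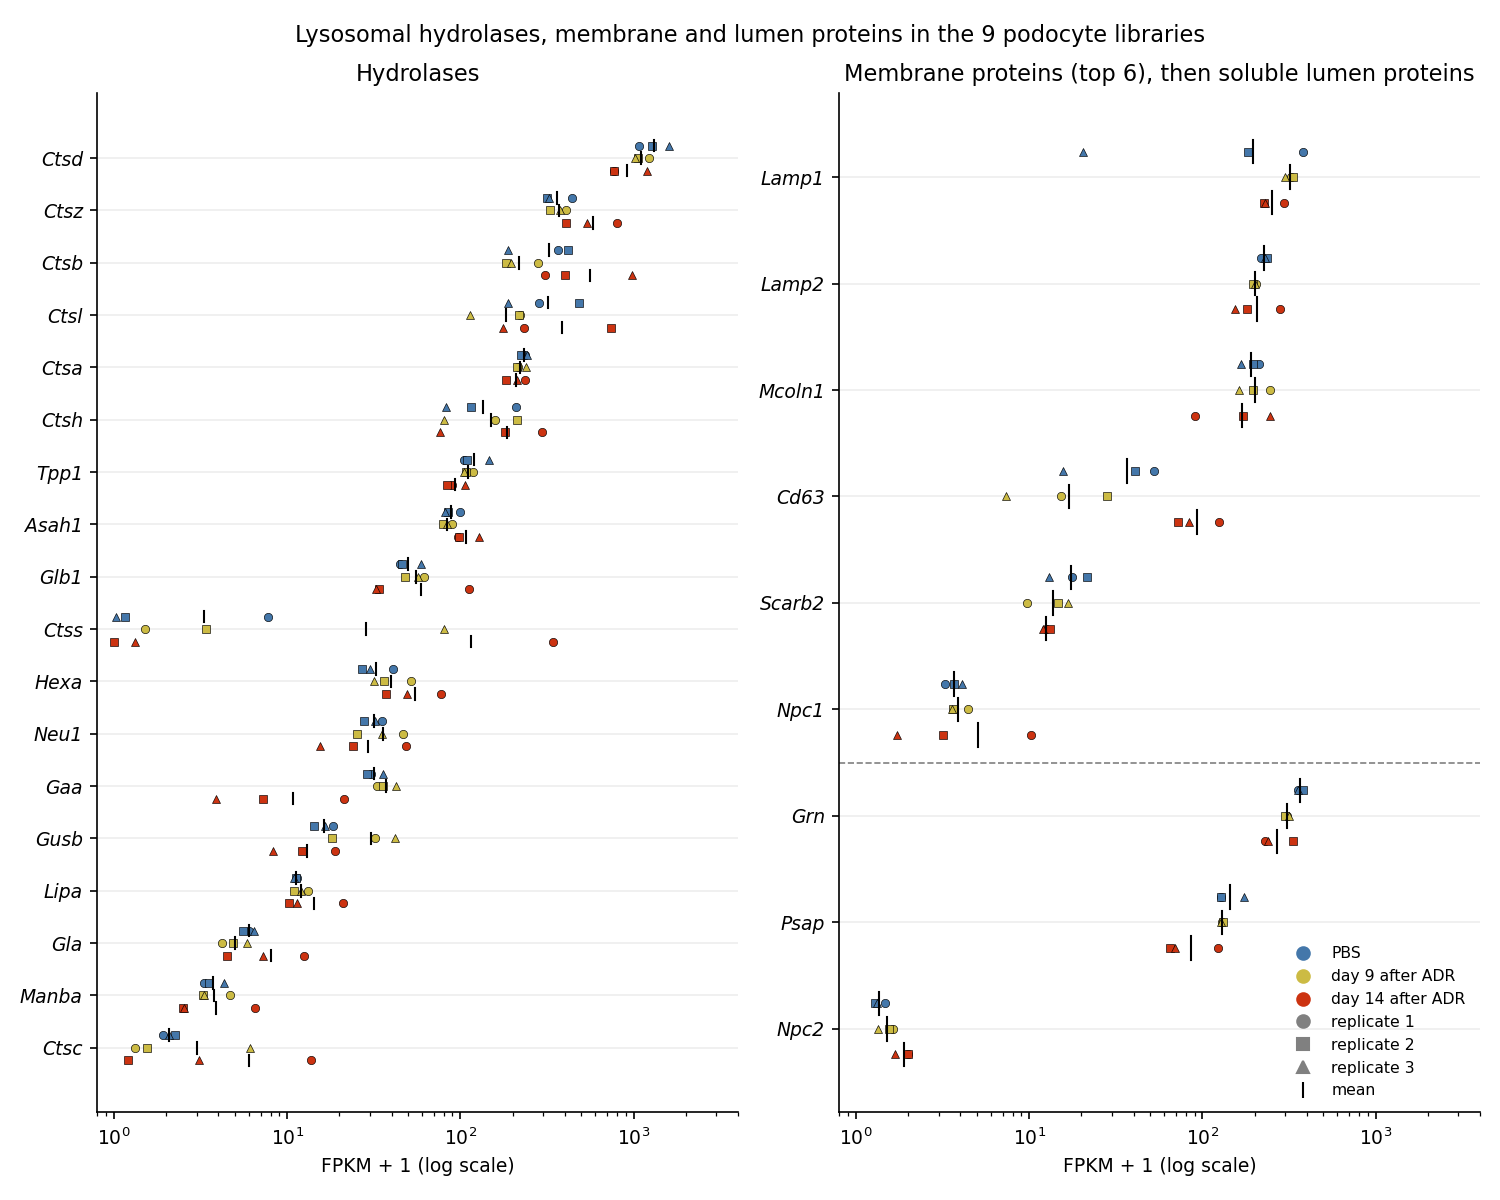
FPKM + 1 (log scale) of the hydrolase genes (left) and of the membrane and lumen genes (right) in the 9 libraries; colour gives the group, marker shape the replicate number, and a vertical tick the group mean. The day 14 points of Gaa lie left of all others, those of Cd63 right of all others, and Ctss spans from 0 to 341 FPKM with its 2 highest points in day 14 replicate 1 and day 9 replicate 3.

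Of the 6 membrane protein genes, 0 passed by limma on day 14 against PBS, beside 17.1% of all genes. On day 9 against PBS 0 passed, beside 0% of all genes. Between day 9 and day 14, 1 passed, beside 15.7% of all genes. Cd63, a tetraspanin of late endosomes, lysosomes and secreted vesicles, was at 51.7, 39.9 and 14.7 FPKM with PBS, at 14.1, 27.0 and 6.37 FPKM on day 9, and at 124, 71.0 and 82.2 FPKM on day 14. Day 14 lay above both other groups. Its log2 change was 2.85 ± 0.57 against day 9 (adjusted p = 0.0209 by limma) and 1.63 ± 0.57 against PBS, which did not pass (adjusted p = 0.104). The day 9 value against PBS, -1.18, did not pass either (adjusted p = 0.9999). Without the 2 libraries that stood apart the change against day 9 was 2.10 and did not pass (adjusted p = 0.0695).

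The other membrane genes had day 14 values that overlapped PBS. Lamp1, an abundant glycoprotein of the lysosomal membrane, was at 295, 227 and 229 FPKM on day 14, between the PBS values of 19.3 and 382 FPKM. Lamp2, its relative with a role in autophagy, was at 218, 235.5 and 228 FPKM with PBS, at 204, 196 and 201 FPKM on day 9, and at 281, 179 and 153 FPKM on day 14. Mcoln1, a calcium channel of the lysosome, was at 212, 194 and 166 FPKM with PBS, at 244, 194 and 162 FPKM on day 9, and at 89.2, 169.5 and 244 FPKM on day 14. In both genes the day 14 libraries spread to either side of the PBS libraries. The log2 changes on day 14 against PBS were 1.30 ± 0.88 for Lamp1, -0.05 ± 0.25 for Lamp2 and -0.15 ± 0.36 for Mcoln1, and none passed (adjusted p = 0.386, 0.596 and 0.591 by limma; 0 of the 3 had an unadjusted p under 0.05). Scarb2, the receptor that carries glucocerebrosidase to lysosomes and whose loss causes kidney disease with podocyte injury, ranged from 8.67 to 20.4 FPKM. Npc1, which exports cholesterol, was at most 3.43 FPKM apart from 9.21 FPKM in day 14 replicate 1.

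Of the soluble lumen proteins, Psap and Grn were tested, and both had day 14 values under the lowest PBS value without passing. Psap, the precursor of the saposins that present lipids to hydrolases, was at 127, 128 and 172 FPKM with PBS, at 129, 131 and 128 FPKM on day 9, and at 122, 63.9 and 68.6 FPKM on day 14. Its log2 change against PBS was -0.64 ± 0.28 (adjusted p = 0.0805 by limma). Grn, progranulin, was at 356, 379 and 356 FPKM with PBS, at 308, 299 and 315 FPKM on day 9 and at 230, 332 and 239 FPKM on day 14, so that all 6 injured libraries were under the lowest PBS value. Its log2 change on day 14, -0.32 ± 0.21, did not pass (adjusted p = 0.152 by limma). Npc2, the cholesterol carrier that hands its cargo to NPC1, stayed between 0.284 and 0.999 FPKM in every library and was not tested. All its day 14 values lay above all others, but this RNA is abundant in many tissues, and whether the low values reflect the cells or the annotation or quantification behind the table was not tested.

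Between day 9 and day 14, 7 of the 42 members passed, beside 15.7% of all genes: 5 were higher (5.71% of all genes were) and 2 lower (9.98% of all genes were). They were the 6 genes that passed against PBS and Cd63. The log2 changes were 2.29 ± 0.47 for Atp6v1f (adjusted p = 0.0244 by limma), 1.57 ± 0.24 for Atp6v1g1 (0.0129), 1.45 ± 0.26 for Atp6v1c1 (0.0193) and 1.47 ± 0.26 for Atp6v0e (0.0193). They were -1.51 ± 0.30 for Atp6v0a1 (adjusted p = 0.0129 by limma) and -1.92 ± 0.53 for Gaa (0.0296). This comparison is also the test of whether the day 14 change against PBS differed from the day 9 change. The median log2 change was 0.80 for the V1 genes, 0.62 for the V0 genes, 0.32 for the hydrolases and 0.16 for the membrane proteins. Without day 14 replicate 3 the V0 median was -0.03. With a common column total 10 members passed, 5 in each direction.

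Several of these calls were lost when single libraries were left out. Calls outside the members were lost too. Without PBS replicate 2, or with a term for Y-linked transcripts, 0 genes of the pathway lists below passed on day 14 against PBS. The share of all genes that passed is not given for these fits, so the losses are no result about the members. On day 14 against PBS, the number of members that passed was 0 without PBS replicate 2, 1 without PBS replicate 3 and 0 with a term for Y-linked transcripts, which all PBS libraries held; it was 8 without both libraries that stood apart, among them all 6. Atp6v0a1 was lost only without PBS replicate 2 among the fits that left out 1 library, and Atp6v1f also without PBS replicate 1. On day 14 against day 9 it was 4, 3 and 2 without day 9 replicate 1, 2 and 3, and 6 without both libraries that stood apart, where Atp6v1c1 and Cd63 were lost. Atp6v0a1 and Atp6v1g1 passed against day 9 in all 9 fits that left out 1 library, but not with the length and GC trend removed, where they were at -1.37 and 0.69 (adjusted p = 0.0501 and 0.137 by limma) and Atp6v1f and Gaa were also lost.

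The changes on day 14 also moved with transcript length. Over the 9732 tested genes with an annotated length, the Spearman correlation between length and log2 change on day 14 against PBS was -0.331, and the median change fell from 0.74 in the shortest of 10 equal bins of genes to -0.36 in bin 8. Over the 15 tested pump genes it was -0.518, and over the 42 members -0.300; the points share libraries, depth and RNA quality, and the values are descriptions. On day 9 it was 0.072 over all genes. Atp6v1f and Atp6v1g1 have longest annotated transcripts of 806 and 1135 bases, Atp6v0e one of 2812, Gaa 3633, Atp6v0a1 4162 and Atp6v1c1 4927. With a trend on length and GC content removed in each library, 3 members passed on day 14 against PBS: Atp6v0a1 at -1.95, Atp6v0e at 1.26 and Atp6v1c1 at 1.52. Atp6v1f at 1.45, Atp6v1g1 at 0.82 and Gaa at -1.31 did not, with adjusted p of 0.0723, 0.0831 and 0.112 by limma.

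**Figure D4:**
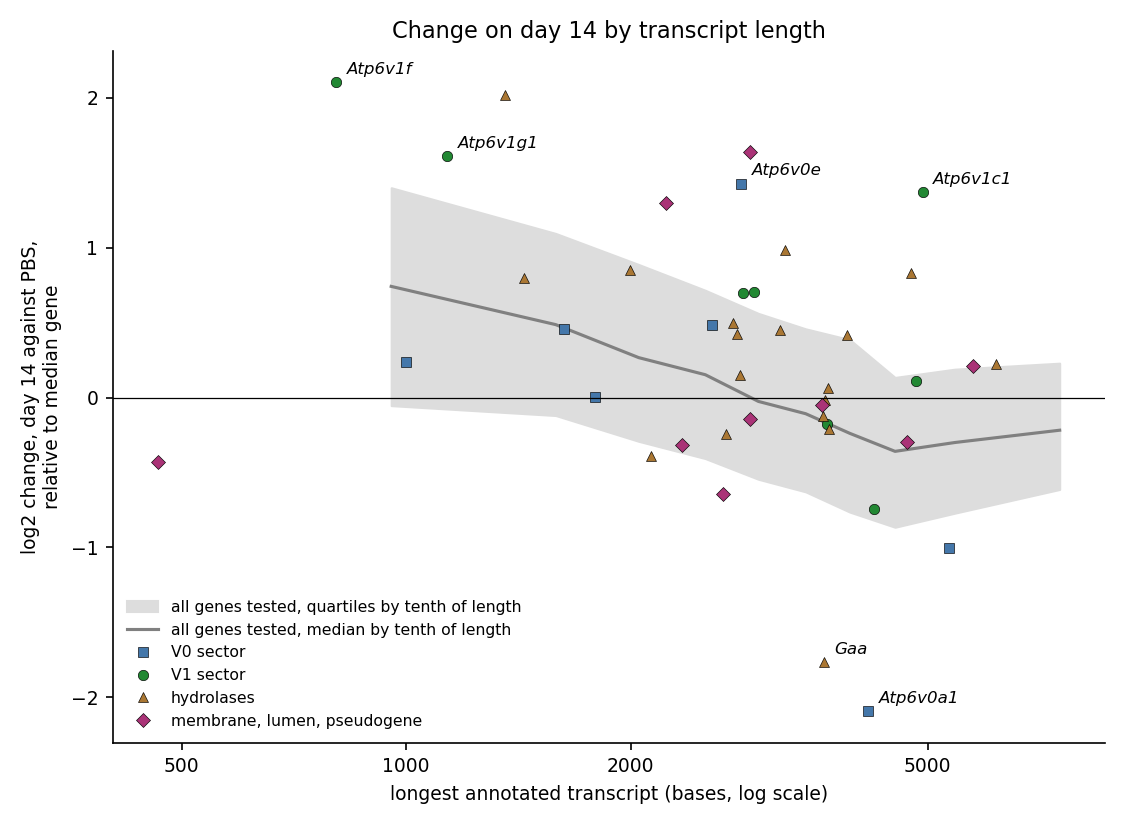
Log2 change on day 14 against PBS, relative to the median gene, against the longest annotated transcript (log scale); the grey line and band are the median and quartiles of all genes tested over 10 bins of length, and symbols are the 42 genes tested by class. The grey line runs from 0.74 at the short end to below 0 for long genes, Atp6v1f and Atp6v1g1 lie above it at the short end, Atp6v1c1 lies above it and Atp6v0a1 below it at the long end.

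Genes of the same pathway outside the members were read from 5 lists, and 0 of their genes passed on day 9. Of 28 further hydrolases and lumen proteins tested, 0 were higher and 8 lower on day 14 against PBS, beside 6.32% and 10.7% of all genes, with a median log2 change of -0.41. Sgsh, which removes sulfate from heparan sulfate, was at 14.2, 16.6 and 19.7 FPKM with PBS, then at 2.01, 2.90 and 3.06 FPKM on day 14, a log2 change of -2.14 ± 0.23 (adjusted p = 0.00905 by limma). Smpd1, acid sphingomyelinase, was at 45.8, 51.2 and 63.9 FPKM with PBS, then at 3.36, 7.74 and 13.0 FPKM on day 14, a change of -2.59 ± 0.39 (adjusted p = 0.00994 by limma). Idua, Acp2, Naglu, Ctso and Plbd2 were also among the lower genes. The count of lower genes was 0 without PBS replicate 2 or with the term for Y-linked transcripts, 3 without PBS replicate 3, 6 with the length and GC trend removed, and 12 without the libraries that stood apart. With only the 2 groups compared in the fit it was 5.

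Of 15 genes that sort and mature lysosomal enzymes, 0 were higher and 5 lower, beside 6.32% and 10.7% of all genes, with a median log2 change of -0.45. Ap3d1, a subunit of the adaptor that carries membrane proteins to lysosomes, changed by -1.69 ± 0.30 (adjusted p = 0.0108 by limma). The adaptors Gga1 and Gga3, which pick up mannose 6-phosphate receptors at the Golgi, changed by -1.46 ± 0.29 and -1.52 ± 0.34 (adjusted p = 0.0131 and 0.0182 by limma). Cln6 and Ap1g1 were the others. The count was 0 without PBS replicate 2, without PBS replicate 3, with the term for Y-linked transcripts or with the length and GC trend removed, and 3 without day 9 replicate 1, day 9 replicate 2 or day 14 replicate 2. With only the 2 groups compared in the fit it was 2.

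The regulators had 2 of 15 genes higher and 2 lower on day 14 against PBS, beside 6.32% and 10.7% of all genes. Their median log2 change was -0.33, and 0.25 without day 14 replicate 1. Lamtor5, a small subunit of the Ragulator complex that tethers mTORC1 signalling to lysosomes, was at 46.5, 33.9 and 38.5 FPKM with PBS, then at 187, 80.4 and 83.5 FPKM on day 14, a change of 1.58 ± 0.36 (adjusted p = 0.0307 by limma). Rraga, a GTPase of the same machinery, was the other higher gene. Tfe3, a relative of TFEB, was at 11.9, 11.1 and 11.2 FPKM with PBS, 8.72, 9.67 and 9.76 FPKM on day 9 and 4.71, 4.89 and 3.09 FPKM on day 14, a change of -1.11 ± 0.23 (adjusted p = 0.0135 by limma). Flcn, which acts on the Rag GTPases, changed by -1.01 ± 0.21 (adjusted p = 0.0131 by limma). Tfeb itself was at 14.8, 13.2 and 8.86 FPKM with PBS and 11.3, 7.27 and 6.21 FPKM on day 14 and did not pass. All 4 calls were lost without PBS replicate 2 or 3, with the term for Y-linked transcripts or with the length and GC trend removed. They were also lost with only the 2 groups compared in the fit. The 2 higher ones were lost as well without PBS replicate 1, without day 9 replicate 1 or with no filter on low values.

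Of 21 further membrane proteins and transporters, 0 were higher (6.32% of all genes were) and 2 lower (10.7% were), Abca2 (-1.40 ± 0.32) and the chloride and proton exchanger Clcn7 (-0.92 ± 0.25), with adjusted p of 0.0191 and 0.0249 by limma. Of 9 pump accessory and assembly genes, 1 was higher and 1 lower, beside the same 6.32% and 10.7% of all genes. Ccdc115, an assembly factor, was higher (1.63 ± 0.42, adjusted p = 0.0435 by limma). Atp6ap2, an accessory subunit also known as the prorenin receptor, was lower (-0.62 ± 0.20, adjusted p = 0.0357 by limma). These 4 calls were lost without PBS replicate 2 or 3 or with the term for Y-linked transcripts, and Abca2, Clcn7 and Ccdc115 also with the length and GC trend removed. Ccdc115 was also lost without PBS replicate 1 or day 9 replicate 1 or 2, and Atp6ap2 without PBS replicate 1 or any 1 of the day 9 libraries. With only the 2 groups compared in the fit, Abca2, Clcn7 and Atp6ap2 were lost.

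Set beside the promoters printed above, the day 14 values of the 7 genes with the CLEAR core ran from -0.75 (Atp6v1a) to 1.43 (Atp6v0e), with a median of -0.02 against PBS. Of them 1 was higher and 0 lower, beside 6.32% and 10.7% of all genes. Among the 25 tested members with a window and no core, 1 was higher and 2 were lower, with a median of 0.15. Genes with and without these letters were thus found among both the called and the uncalled members, and no test was made between them.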

How the data were processed

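Total RNA from GFP-positive podocytes was depleted of ribosomal RNA and sequenced with Illumina protocols, per the labels. The authors deposited FPKM values in 1 table. Bowtie 0.12.7, Cufflinks and the build mm9 are named, without roles, in the submitters' processing notes. No annotation, strand setting or rule for multiply mapped reads is given in those notes or the labels, so near-identical and overlapping genes are uncertain. Columns headed control were matched to PBS libraries by replicate number. Of 23813 rows, 260 symbols had more than 1, of which the most abundant was used.

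Genes that reached 1 FPKM in 3 or more of the 9 libraries were tested with limma 3.58.1 in R 4.3.3 (variance trend, group as the only term, two-sided) on log2(FPKM + 1), with the Benjamini-Hochberg adjustment and a threshold of 0.05. The fit was tested on simulated data in which each gene had 1 spread shared by all groups. Pairs of day 14 libraries correlated at 0.861 to 0.974 (Pearson, log2 scale), and pairs of PBS libraries at 0.964 to 0.986. The simulated data did not have such a difference between groups, so they do not show how the fit handles it. Lengths are those of the longest GENCODE M21 transcript, matched for 99.4% of genes tested. Relative depth was estimated from ratios of values under 0.3 FPKM.

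The members, lists, tests and alternatives were chosen with earlier results of these data known. Named in full are members that passed in any comparison, the 3 most abundant of each class and, per pathway list, up to 3 called genes with the smallest p; 1 gene that this rule names is not reported here. Tfeb, Idua, Acp2, Naglu, Ctso, Plbd2, Cln6, Ap1g1, Rraga and further members were named after their values were seen. Alternatives covered the pseudocount (0.1), filters, scalings, the variance model, duplicate symbols, the groups fitted, a replicate block, each library left out, both libraries with markers of other kidney cells left out, a term for Y-linked transcripts, and removal of a trend on length and GC content.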

Additional observations from a re-analysis of the deposited data

Results flagged for a closer look

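For 7 genes the log2 change on day 14 differed from that on day 9, both taken against the same PBS libraries, by the test of day 14 against day 9 itself (limma, adjusted p under 0.05). Of all genes tested, 15.7% passed that test. The values here are its log2 changes relative to its own median gene. They differ a little from the differences of the changes against PBS, which have other median genes. The log2 change was 2.85 for Cd63, 2.29 for Atp6v1f, 1.57 for Atp6v1g1, 1.47 for Atp6v0e and 1.45 for Atp6v1c1. It was -1.51 for Atp6v0a1 and -1.92 for Gaa. For each of the 7, all 3 day 14 libraries lay on the same side of all 3 day 9 libraries. The genes were chosen by the test on these same libraries, so this adds no support. Of all genes tested, 13.2% had all day 14 values above all day 9 values and 24.6% had all below.

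Outside the test, 5 pump isoforms of other tissues gave values above the level of the PBS libraries, each in a library that also held markers of other kidney cells. In day 14 replicate 1, Atp6v1b1 was at 9.54 FPKM, Atp6v0a4 at 6.07 FPKM, Atp6v1g3 at 6.05 FPKM and Atp6v1c2 at 3.52 FPKM. Atp6v0d2 was at 4.39 FPKM in day 9 replicate 3. In the PBS libraries none of these 5 exceeded 0.224 FPKM. The part of other kidney cells in these values was not tested.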

How the results depend on the processing

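The number of members that passed on day 9 was 0 under all 22 alternatives. On day 14 against PBS it was 6 and became 10 with a common column total, 2 with only the 2 groups fitted, 0 with a term for Y-linked transcripts and 3 with a trend on length and GC content removed, and it ran from 0 to 8 over the 9 fits that left out 1 library. On day 14 against day 9 it was 7 and became 4 with no filter on low values, 1 with only the 2 groups fitted and 3 with the length and GC trend removed, and it ran from 2 to 10 with 1 library left out. All 13 member calls kept their direction under every alternative. Their adjusted p ranged from 0.00787 to 0.137 over the alternatives. The share of all genes that passed is not given for the alternatives, so these counts are no result about the members as a group.

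With the replicate number as a block, 5 members passed on day 14 against PBS and 6 against day 9, Gaa being lost in both. The labels do not say that numbers pair libraries, and deviations of same-numbered libraries correlated between -0.265 and 0.431, so the numbers were not taken as pairs.

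The log2 changes of single genes given here that changed sign were all day 14 changes against PBS that had not passed. Ctss was at -0.70 without day 14 replicate 1 and without both libraries with markers of other kidney cells, and at -0.56 with the Y-linked term; it ran up to 3.47 with 1 library left out. Mcoln1 was at 0.27, 0.27 and 0.11 under the same settings, and as low as -0.48 without day 14 replicate 3. Atp6v0b was at -0.0115 with quantile normalization, -0.053 with the Y-linked term, -0.28 with the length and GC trend removed and from -0.42 to 0.72 over the fits that left out 1 library, below 0 without day 14 replicate 3 or PBS replicate 2. Atp6v0e2 was at -0.13 with no filter, -0.0769 with a mean filter, -0.0509 with a common total, -0.13 with quantile normalization, -0.29 with the length and GC trend removed and from -0.31 to 0.56 with 1 library left out, below 0 without day 14 replicate 2 or 3 or PBS replicate 2. Lamp2 was at 0.0204 with a pseudocount of 0.1 and at 0.00 and 0.13 without day 14 replicates 2 and 3. Some list medians also changed sign. Without day 14 replicate 1 that of the regulators went from -0.33 to 0.25 against PBS and from -0.03 to 0.59 against day 9. Without both libraries with markers of other kidney cells, the hydrolase median against day 9 went from 0.32 to -0.02. The causes were not tested.

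The low relative depth of the day 14 libraries limits low values most, and no counting interval can be given without read counts. A 0 in a library can be a failed estimate.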
